A study of Rattus norvegicus with 4 samples.

Results

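Matrix metalloproteinases (Mmp), their tissue inhibitors (Timp), and the Adam, Adamts and Adamtsl genes were described in RT4D6 cells with lowered Sox10. The genes were all those whose symbol in the platform annotation starts with one of these 5 family names followed by a digit, on probe sets with a single symbol. This rule found 55 genes on 79 probe sets, out of 14217 genes and 31042 non-control probe sets. Each gene was represented by its probe set with the highest mean log2 signal over the 4 arrays. RT4D6 is a rat Schwannoma cell line, that is, a single tumour line derived from Schwann cells, the glia of peripheral nerve. Cells received either the wild type (specific) Sox10 siRNA, on 2 arrays, or the mutant (control) Sox10 siRNA, on 2 arrays, and the labels give 48 hours for both. No untreated cells were profiled among these arrays, so that both groups carry a transfected siRNA. The labels describe the line as one that expresses Sox10, p75, GFAP and S100.

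Metalloproteinases of the Mmp family are zinc enzymes that cut collagens, laminins and other matrix proteins, and a subset is anchored in the cell membrane. Adam proteases sit in the membrane and release the outer part of growth factors, receptors and adhesion molecules, whereas Adamts proteases are secreted and cut proteoglycans and procollagens, and the Adamts-like proteins have the accessory domains without the protease. The Timp proteins bind the active site of these enzymes, and Timp3, which stays bound to the matrix, also inhibits several Adam and Adamts proteases. In peripheral nerve, such enzymes are known for clearing myelin and basal lamina after injury and for cutting neuregulins, the axonal signals that Schwann cells read.

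The promoters of 4 genes whose signals changed the most are shown because the study looked for Sox core elements, ACAAT, near genes that responded to the siRNA. Each is the 300-base RefSeq window around the gene's start on GRCr8, most of it upstream, written 5' to 3' along the gene, with GC boxes (GGGCGG or CCGCCC) in capitals.
Mmp15 promoter, chr19:9690951-9691250, minus strand: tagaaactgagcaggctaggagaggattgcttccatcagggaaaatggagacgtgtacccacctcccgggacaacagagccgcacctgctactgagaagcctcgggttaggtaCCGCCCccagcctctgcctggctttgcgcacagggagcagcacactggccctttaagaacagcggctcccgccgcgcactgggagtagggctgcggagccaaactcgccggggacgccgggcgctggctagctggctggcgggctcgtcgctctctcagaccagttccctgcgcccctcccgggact
Timp3 promoter, chr7:19459509-19459808, minus strand: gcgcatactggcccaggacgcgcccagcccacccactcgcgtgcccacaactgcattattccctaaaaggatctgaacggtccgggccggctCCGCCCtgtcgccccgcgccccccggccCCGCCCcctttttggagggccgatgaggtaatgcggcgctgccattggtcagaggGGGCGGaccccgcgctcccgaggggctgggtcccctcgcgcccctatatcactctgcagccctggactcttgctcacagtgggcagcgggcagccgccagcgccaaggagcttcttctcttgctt
Adam15 promoter, chr2:177062800-177063099, minus strand: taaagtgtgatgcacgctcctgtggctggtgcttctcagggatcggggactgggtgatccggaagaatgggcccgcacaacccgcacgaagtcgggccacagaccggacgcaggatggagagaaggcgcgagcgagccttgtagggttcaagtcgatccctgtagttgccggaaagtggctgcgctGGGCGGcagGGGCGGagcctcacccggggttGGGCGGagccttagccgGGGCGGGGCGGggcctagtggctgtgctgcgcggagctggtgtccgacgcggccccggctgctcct
Adamtsl5 promoter, chr7:10013705-10014004, plus strand: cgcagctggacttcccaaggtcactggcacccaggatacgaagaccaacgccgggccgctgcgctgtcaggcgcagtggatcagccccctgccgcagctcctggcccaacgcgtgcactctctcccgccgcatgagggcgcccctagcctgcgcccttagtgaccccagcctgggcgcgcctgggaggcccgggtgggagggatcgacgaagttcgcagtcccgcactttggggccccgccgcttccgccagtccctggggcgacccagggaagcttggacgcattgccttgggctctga

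These 4 windows held 65.0% (Mmp15), 68.7% (Timp3), 68.0% (Adam15) and 70.0% (Adamtsl5) G and C, against a median of 52.3% over the windows of all 27457 genes. Both strands were searched. The letters ACAAT or ATTGT did not occur in any of the 4, and they occurred in 6 of the 34 matrix protease, Adam and Timp promoters that could be matched and in 33.1% of all promoters. GC boxes were found 1 time in Mmp15, 3 times in Timp3, 5 times in Adam15, where the last ones overlap, and not in Adamtsl5. They occurred in 20 of the 34 matched promoters and in 34.9% of all. The AP-1 element TGANTCA, long studied at Mmp promoters, was present in 6 of the 34 and in 7.33% of all promoters, and the letters CCAAT or ATTGG in 9 of the 34 and in 37.7% of all. Of the 34, 18 belong to tested genes and 6 to called genes. AP-1 elements occurred in 1 of these 18 and 0 of these 6, and the Sox core letters in 3 and 0. GC boxes occurred in 14 of the 18 and 4 of the 6, and the CCAAT letters in 5 and 1. A match of letters is a description and not a binding site, and the absence of a match in 300 bases says nothing of sites elsewhere.

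Each array gave a linear MAS5 signal for every probe set, with medians of 105 and 101 on the wild type siRNA arrays, against 108 and 110 on the mutant siRNA arrays. A probe set was tested where 2 or more arrays gave it a signal no lower than their median, and 16125 were. Differences are given as log2 fold changes, wild type minus mutant siRNA, from limma on log2 signals centred on each array's median, with Benjamini-Hochberg adjustment over all tested probe sets and a call at an adjusted p under 0.05. Sox10, the target, had signals of 163 and 335 with the wild type siRNA against 2873 and 2890 with the mutant siRNA (log2 fold change -3.54, SE 0.33, limma adjusted p = 0.00130). Schwann cell and glia markers were well above the median with the mutant siRNA, and 9 of 11 on the array were called lower and none higher with the wild type siRNA, with summed signals of 6428 and 8167 against 32685 and 24633. Of 10 smooth muscle markers, 5 were tested and 3 were called higher (Myl9, Acta2 and Tagln). The summed signals, which came mostly from these 3, were 32604 and 44429 with the wild type siRNA, against 6908 and 12517 with the mutant siRNA. Cnn1, Des, Actg2, Lmod1 and Tpm2 were too dim to test. Of these, Des and Tpm2 were lower on both wild type siRNA arrays, and the groups of Cnn1, Actg2 and Lmod1 overlapped. The other 2 tested smooth muscle markers did not pass and pointed in opposite directions. Smtn (smoothelin) had 280 and 401 with the wild type siRNA, against 522 and 771 with the mutant siRNA (log2 fold change -0.84, limma adjusted p = 0.0633), and Myh11 had 138 and 147 with the wild type siRNA, against 95.6 and 35.2 with the mutant siRNA (log2 fold change 1.37, limma adjusted p = 0.137). Of 11 macrophage markers only Cd14 was bright enough to test, and it was not called. Neither of the 2 tested melanocyte markers, the 1 endothelial marker or the 3 fibroblast markers passed the test. The part of the Schwann cell and smooth muscle marker differences in the values below was not tested, and in RNA of whole cultures fewer cells of a type and less RNA per cell cannot be told apart.

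Of the 55 genes, 24 could be tested. With the wild type siRNA, 4 of them were called lower (16.7%) and 3 higher (12.5%), and the other 17 did not pass. Over all 9163 tested genes, also taken by their brightest probe set, 10.6% were called lower and 17.4% higher, and over all 16125 tested probe sets 12.1% were called lower and 14.6% higher. The shares of the protease and inhibitor genes were thus near the background, so that they give no result about the family as a whole. Their median log2 fold change was -0.01, against 0.19 over all tested genes and 0.13 over all tested probe sets, and 12 were above 0 and 12 below. The genes called lower were Mmp15, Timp3 (by its brightest probe set), Adamts4 and Mmp2, and those called higher were Timp2, Adamtsl5 and Adam15. By the brightest probe sets, secreted Mmps, membrane-bound Mmps, Timps and Adamts proteases had 1 gene lower each, and only the Timps had calls in both directions.

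**Figure D1:**
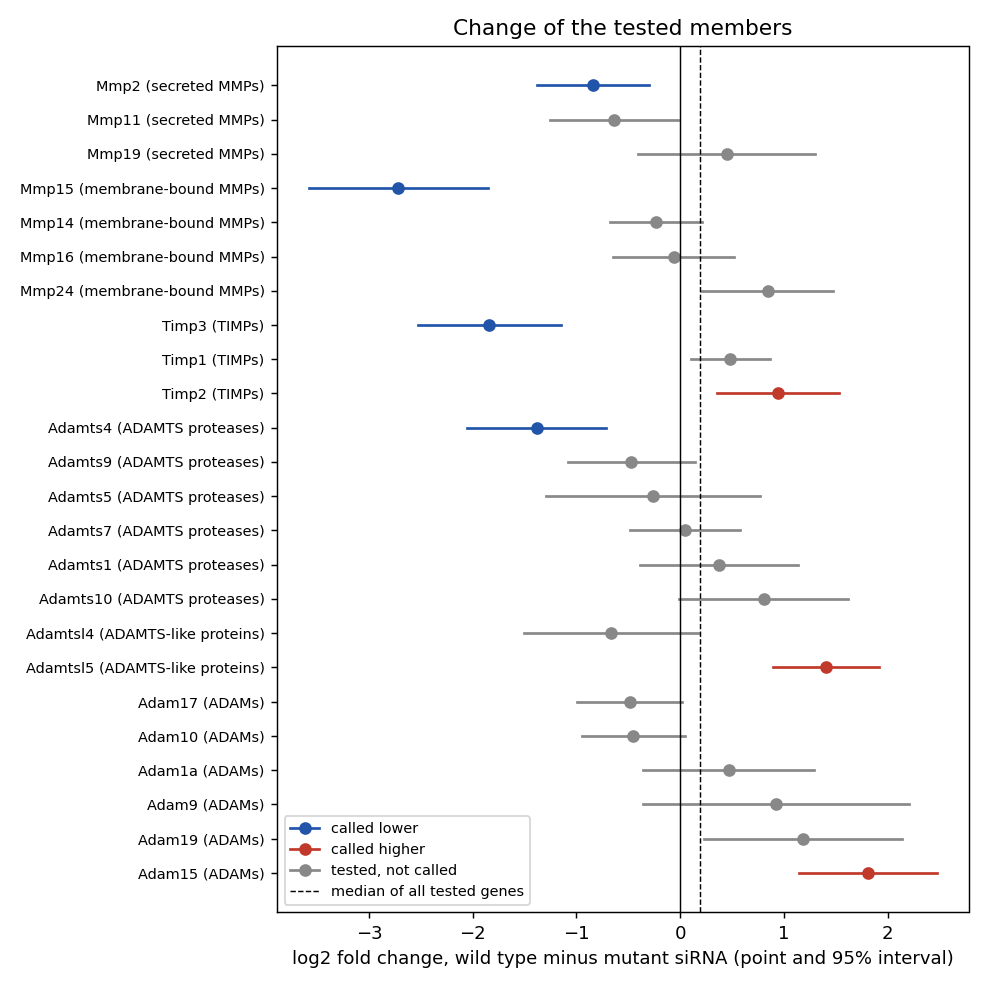
The log2 fold change (wild type minus mutant siRNA, x axis) of the 24 tested genes, 1 line per gene, with its 95% confidence interval as a bar and the median of all tested genes as a dashed line. Mmp15 lies lowest at -2.72 and Adam15 highest at 1.81, and the intervals of most genes between them cross 0.

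Among the membrane-bound Mmps, Mmp15 fell the most of all 24 tested genes. Mmp15 (MT2-MMP) is a transmembrane protease that cuts matrix proteins and can activate the secreted gelatinase Mmp2. Its signals were 355 and 258 with the wild type siRNA, against 3210 and 1379 with the mutant siRNA. Both wild type siRNA arrays were below both mutant siRNA arrays, and the mutant siRNA arrays lay further apart than the wild type siRNA arrays. The mean was 307 ± 68.6 with the wild type siRNA and 2295 ± 1294 with the mutant siRNA (SD, n = 2 each), and the log2 fold change was -2.72 (SE 0.38, 95% interval -3.58 to -1.85, limma adjusted p = 0.00316), a 6.58-fold difference. Without 1 array at a time the log2 fold change stayed between -3.35 and -2.09. Such a fit leaves 1 array in 1 group, so that its spread comes from the other group alone. A call kept or lost in it is therefore not a test of the array left out.

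Mmp14 (MT1-MMP), the membrane protease best known for activating Mmp2 and cutting collagen, had signals of 6558 and 8948 with the wild type siRNA, against 10099 and 8911 with the mutant siRNA. The groups overlapped, since replicate 2 of the wild type siRNA was above replicate 2 of the mutant siRNA. Its log2 fold change of -0.23 (95% interval -0.67 to 0.21) did not pass (limma adjusted p = 0.403), and its other tested probe set gave -0.19. Mmp16 (MT3-MMP) had signals of 543 and 538 with the wild type siRNA, against 480 and 741 with the mutant siRNA, and a log2 fold change of -0.06. Mmp24 (MT5-MMP), known from the nervous system, had signals of 586 and 405 with the wild type siRNA, against 324 and 254 with the mutant siRNA. Both of its wild type siRNA arrays were above both mutant siRNA arrays, yet the log2 fold change of 0.84 (95% interval 0.21 to 1.48) just missed the threshold (limma adjusted p = 0.0545). With the replicate number as a block it passed (limma adjusted p = 0.0171), and a second probe set of Mmp24 gave 0.65 (limma adjusted p = 0.0985).

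Secreted Mmps were seldom bright enough to test. Mmp2 (gelatinase A), which cuts type IV collagen of the basal lamina, had signals of 668 and 946 with the wild type siRNA, against 1421 and 1598 with the mutant siRNA. Both wild type siRNA arrays lay below both mutant siRNA arrays. Its mean was 807 ± 197 with the wild type siRNA and 1510 ± 125 with the mutant siRNA (SD, n = 2 each), with a log2 fold change of -0.84 (SE 0.24, limma adjusted p = 0.0319). A second Mmp2 probe set, too dim to test, had 74.1 and 15.2 with the wild type siRNA, against 35.2 and 70.9 with the mutant siRNA. Its groups overlapped, and the average of both probe sets came to -0.67 and was not called. Without 1 array at a time the log2 fold change of the brightest Mmp2 probe set stayed between -1.12 and -0.57. Mmp11 (stromelysin-3), a protease that is activated by furin inside the cell, had signals of 207 and 230 with the wild type siRNA, against 384 and 335 with the mutant siRNA, and its log2 fold change of -0.64 did not pass (limma adjusted p = 0.110). Mmp19 had 188 and 159 with the wild type siRNA, against 115 and 155 with the mutant siRNA, with a log2 fold change of 0.45 (limma adjusted p = 0.394). For Mmp11 the groups did not overlap, and for Mmp19 the lower wild type siRNA array was only just above the higher mutant siRNA array.

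**Figure D2:**
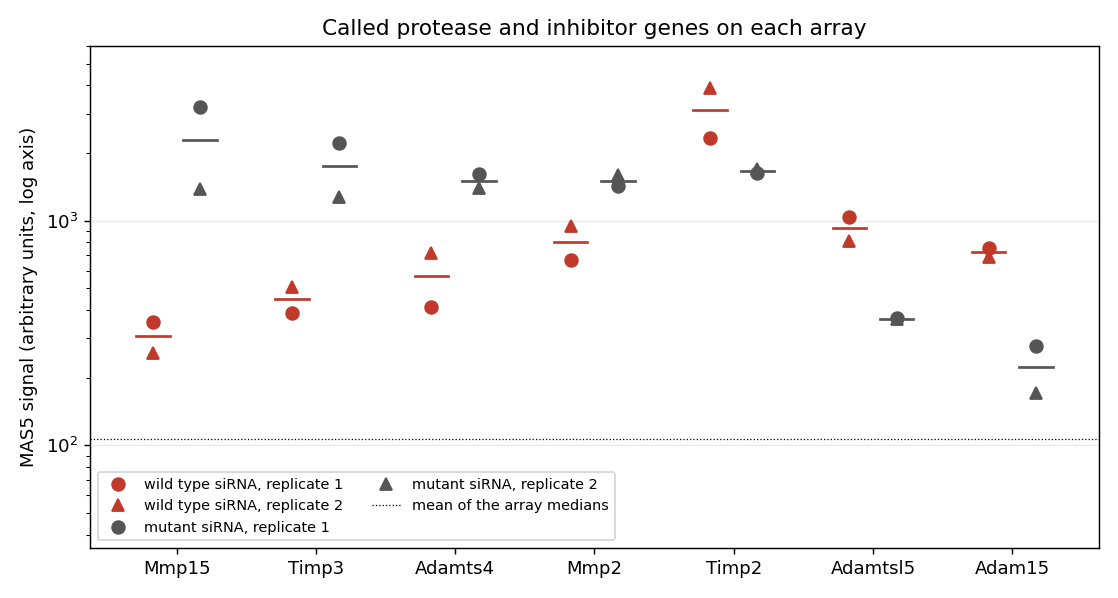
Signals of the 7 called genes on a log scale (y axis, MAS5 signal), with a point for each array, a bar for the mean of each group's 2 arrays and a dotted line at the mean of the array medians. On the brightest probe set of each, Mmp15, Timp3, Adamts4 and Mmp2 are lower with the wild type siRNA, and Timp2, Adamtsl5 and Adam15 are higher. Of the probe sets not shown in this figure, 1375138_at of Timp3 points the same way, and the others of Timp3 and that of Timp2 point the other way.

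Among the inhibitors, the brightest probe set of Timp3 was called lower and that of Timp2 higher, but for Timp3 the direction depended on the probe set. On the brightest Timp3 probe set (1389836_a_at) the signals were 390 and 508 with the wild type siRNA, against 2212 and 1280 with the mutant siRNA. This is a log2 fold change of -1.84 (SE 0.30, limma adjusted p = 0.00518), with both wild type siRNA arrays below both mutant siRNA arrays. A second probe set (1375138_at) also fell, with 333 and 414 with the wild type siRNA, against 1578 and 998 with the mutant siRNA (log2 fold change -1.68, limma adjusted p = 0.00556). On another (1372926_at) the order was turned round, with 1055 and 786 with the wild type siRNA, against 389 and 408 with the mutant siRNA, and this probe set was called higher (log2 fold change 1.27, SE 0.23, limma adjusted p = 0.00706). The last (1368989_at) had 559 and 429 with the wild type siRNA, against 343 and 402 with the mutant siRNA and did not pass (log2 fold change 0.48, limma adjusted p = 0.172).

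Within each array, the log2 ratio of the first of these probe sets over the one called higher was -1.44 and -0.63 with the wild type siRNA, against 2.51 and 1.65 with the mutant siRNA, a difference of -3.11 that does not depend on the scaling of the arrays. The calls of the 3 probe sets that passed were kept without each array in turn. Timp3 was the only 1 of the 8 genes with several tested probe sets that had calls in both directions. When the probe sets of a gene were averaged, Timp3 had a log2 fold change of -0.44 and was not called (limma adjusted p = 0.155). Which transcripts or exons each Timp3 probe set reads was not examined here, so that no direction is given for the gene as a whole. If Timp3 is not counted as called, 3 of the 24 tested genes were lower (12.5%).

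**Figure D3:**
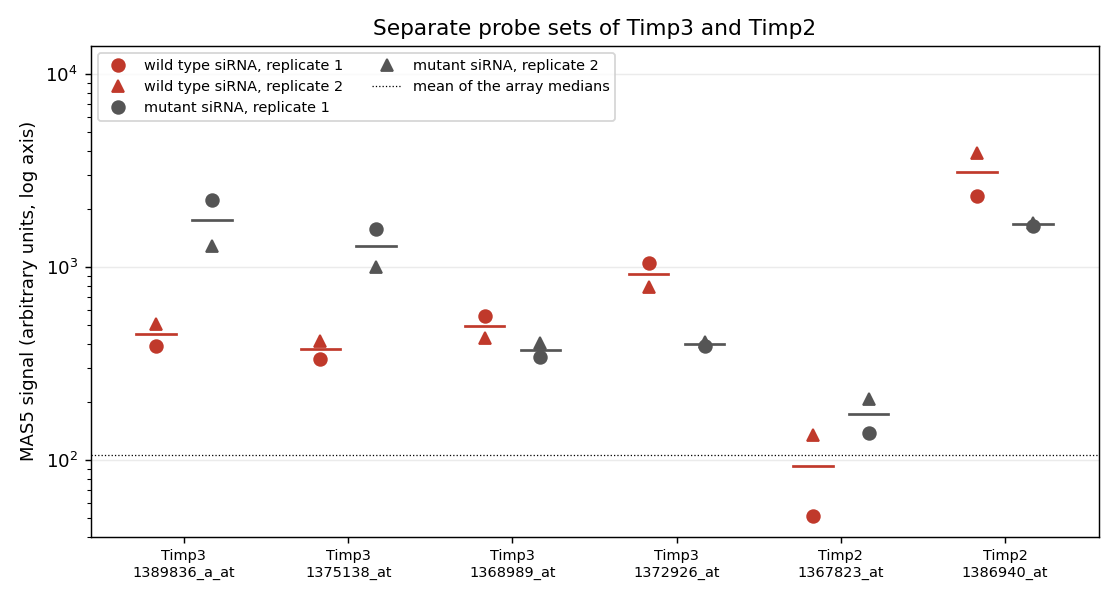
Signals of the tested Timp3 and Timp2 probe sets on a log scale (y axis, MAS5 signal), with a point for each array, a bar for the mean of each group's 2 arrays and a dotted line at the mean of the array medians. Of the 4 Timp3 probe sets, 2 are lower with the wild type siRNA and 1 is higher, and the last is not called.

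Timp2, which inhibits Mmps and also helps Mmp14 to activate Mmp2, was called higher. Its brightest probe set had 2345 and 3899 with the wild type siRNA, against 1629 and 1694 with the mutant siRNA, with no overlap between groups. The log2 fold change was 0.94 (SE 0.26, limma adjusted p = 0.0293). With 1 array left out it ran between 0.55 and 1.34. A dimmer Timp2 probe set pointed the other way without passing, with 51.4 and 134.5 with the wild type siRNA, against 137.7 and 207.9 with the mutant siRNA (log2 fold change -0.95, limma adjusted p = 0.241), and the average of both probe sets came to -0.0013.

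Timp1, a secreted inhibitor of most soluble Mmps, had signals of 8286 and 10173 with the wild type siRNA, against 6604 and 7273 with the mutant siRNA. The groups did not overlap, but the log2 fold change of 0.48 (SE 0.17, 95% interval 0.10 to 0.87) missed the threshold (limma adjusted p = 0.0633) and passed with the replicate number as a block (limma adjusted p = 0.00771). Timp4 stayed between 42.6 and 69.7 on all 4 arrays, below every array median.

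Adamts4, an aggrecanase that cuts aggrecan, versican and brevican, was the 1 called gene of its class. The signals were 412 and 721 with the wild type siRNA, against 1617 and 1395 with the mutant siRNA. Neither wild type siRNA array reached the lower mutant siRNA array. Its mean was 566 ± 218 with the wild type siRNA and 1506 ± 157 with the mutant siRNA (SD, n = 2 each), which gave a log2 fold change of -1.38 (SE 0.29, limma adjusted p = 0.0122). With 1 array left out the log2 fold change ran between -1.81 and -0.95.

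Adamts5, the other main aggrecanase, had signals of 577 and 1594 with the wild type siRNA, against 1532 and 963 with the mutant siRNA. The groups overlapped and the replicates lay far apart, and the log2 fold change of -0.26 had a 95% interval of -1.29 to 0.77. Adamts1, its direct neighbour on chromosome 11 with no coding gene between them, is a protease of versican and aggrecan. It had 995 and 2116 with the wild type siRNA, against 1170 and 1194 with the mutant siRNA (log2 fold change 0.37, limma adjusted p = 0.429). The values of both genes rested on single arrays. Without wild type siRNA replicate 2 Adamts1 came to -0.20 and Adamts5 to -1.02. Without wild type siRNA replicate 1 Adamts1 came to 0.95 and Adamts5 to 0.50.

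The remaining tested Adamts genes did not pass. Adamts9, a protease of proteoglycans, had 655 and 413 with the wild type siRNA, against 844 and 687 with the mutant siRNA (log2 fold change -0.47, limma adjusted p = 0.217). Adamts7, which cuts the cartilage protein Comp, had 587 and 700 with the wild type siRNA, against 717 and 598 with the mutant siRNA. The log2 fold change of 0.05 came to -0.030 with the signals as deposited, so that no direction is given. Adamts10, which binds fibrillin, had 194 and 205 with the wild type siRNA, against 124 and 117 with the mutant siRNA (log2 fold change 0.81, limma adjusted p = 0.124), and passed where a signal at the median on all 4 arrays was asked for (limma adjusted p = 0.0478).

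Of the Adamts-like genes, Adamtsl5 was called higher. Its signals were 1038 and 814 with the wild type siRNA, against 370 and 364 with the mutant siRNA, and the groups lay well apart. The mean was 926 ± 159 with the wild type siRNA and 367 ± 4.31 with the mutant siRNA (SD, n = 2 each), which gave a log2 fold change of 1.40 (SE 0.22, limma adjusted p = 0.00469) that was kept without each array in turn (1.26 to 1.55). A second Adamtsl5 probe set, too dim to test, had 153 and 58.7 with the wild type siRNA, against 33.1 and 24.5 with the mutant siRNA. Adamtsl4, a fibrillin-binding protein of connective tissue, had 196 and 379 with the wild type siRNA, against 373 and 563 with the mutant siRNA and overlapped between groups (log2 fold change -0.67, limma adjusted p = 0.201). With 1 array left out the log2 fold change of Adamtsl4 ran between -1.17 and -0.17.

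Adam15, a membrane protease with an integrin-binding motif, rose the most of all tested genes of these families. It had signals of 753 and 691 with the wild type siRNA, against 277 and 170 with the mutant siRNA. Both wild type siRNA arrays were far above both mutant siRNA arrays. The mean was 722 ± 43.2 with the wild type siRNA and 224 ± 75.7 with the mutant siRNA (SD, n = 2 each), the log2 fold change 1.81 (SE 0.29, 95% interval 1.14 to 2.48, limma adjusted p = 0.00494), a 3.51-fold difference. The call was kept without each array in turn, with log2 fold changes of 1.44 to 2.18.

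The main sheddases did not pass. Adam10, which cuts Notch and L1cam, had signals of 504 and 525 with the wild type siRNA, against 798 and 691 with the mutant siRNA. The log2 fold change came to -0.45 (95% interval -0.95 to 0.05, limma adjusted p = 0.152), and a second probe set gave -0.21. Adam17, the enzyme that releases Tnf and several ligands of the epidermal growth factor receptor, had 1452 and 1131 with the wild type siRNA, against 2181 and 1652 with the mutant siRNA. On the brightest probe set of each gene the wild type siRNA arrays lay below the mutant siRNA arrays. The groups overlapped on the second Adam10 probe set. For Adam17 the log2 fold change was -0.49 (95% interval -0.995 to 0.020, limma adjusted p = 0.132).

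Adam19 (meltrin beta), which can cut neuregulin, had signals of 1006 and 2278 with the wild type siRNA, against 510 and 972 with the mutant siRNA. On each number the wild type siRNA array was the higher one, and replicate 2 exceeded replicate 1 in both groups. Its log2 fold change of 1.18 (SE 0.42, 95% interval 0.23 to 2.14) missed the threshold (limma adjusted p = 0.0674), and with the replicate number as a block it passed (limma adjusted p = 0.000640). A second probe set had 246 and 646 with the wild type siRNA, against 163 and 222 with the mutant siRNA (log2 fold change 1.15, limma adjusted p = 0.0910). The remaining Adam19 probe sets were dim, with 30.8 and 117.5 with the wild type siRNA, against 62.6 and 70.6 with the mutant siRNA, and 6.4 and 37.2 with the wild type siRNA, against 62.3 and 37.4 with the mutant siRNA. Averaged over all its probe sets, Adam19 came to 0.17 (limma adjusted p = 0.848). With 1 array left out, the brightest probe set ran between 0.57 and 1.80. Adam9 (meltrin gamma) had 204 and 103 with the wild type siRNA, against 111 and 58.8 with the mutant siRNA. Adam1a, a subunit of the sperm protein fertilin, had 211 and 194 with the wild type siRNA, against 190 and 126 with the mutant siRNA. Neither passed, with log2 fold changes of 0.92 (limma adjusted p = 0.244) for Adam9 and 0.47 (limma adjusted p = 0.358) for Adam1a.

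The other 31 genes were too dim to test, which does not show that they are absent. Of their 124 signals, 60 were below the 25th percentile of the array (26.2 to 31.0), and none was above 147. On the brightest probe set 25 of them reached the array median on no array and 6 on 1 array. They were Mmp3, Mmp7, Mmp8, Mmp9, Mmp10, Mmp12, Mmp13, Mmp17, Mmp23 and Mmp28, Timp4, Adamts6, Adamts8, Adamts12, Adamts15, Adamts16 and Adamts19, Adamtsl1 and Adamtsl2, and Adam2, Adam3a, Adam4, Adam6, Adam7, Adam8, Adam11, Adam18, Adam22, Adam23, Adam32 and Adam33.

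**Figure D4:**
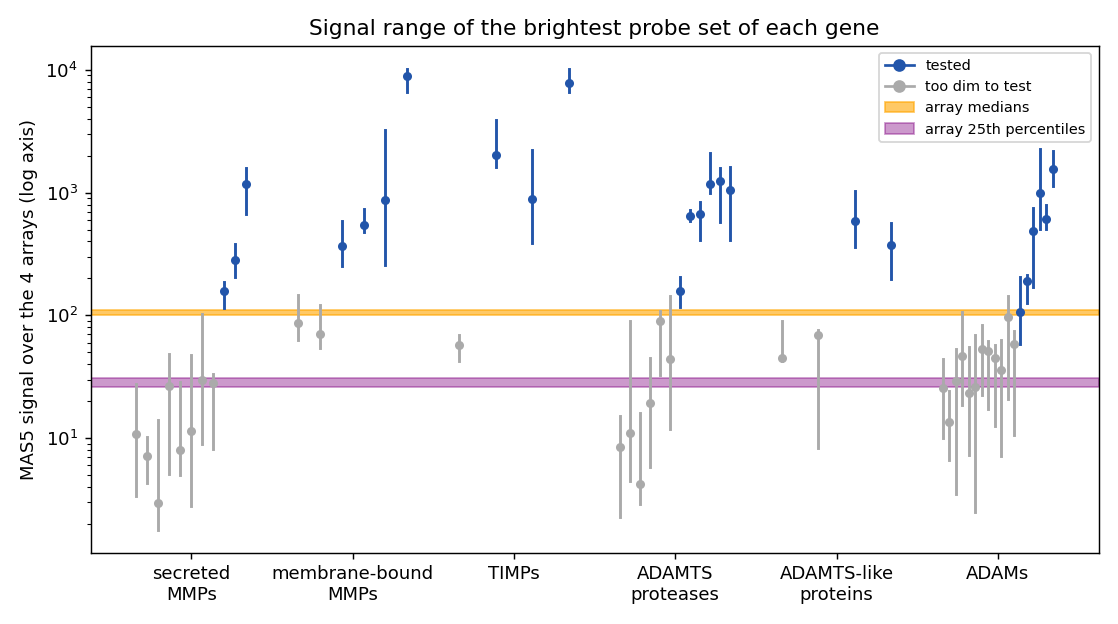
Range of the MAS5 signal over the 4 arrays (y axis, log scale) for all 55 genes on their brightest probe set, grouped by class, with a line for the range, a point for the median, and shaded bands at the array medians and the array 25th percentiles. The 24 tested genes (blue) lie mostly above the upper band, and the 31 others (grey), with signals up to 147, lie mostly below it.

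Several dim genes lie side by side. Mmp13, Mmp12, Mmp3, Mmp10, Mmp8 and Mmp7, which include the collagenases and stromelysins, follow each other on chromosome 8 with 0 to 2 coding genes between neighbours, and their 24 signals ran from 2.8 to 48.7, with 19 below the 25th percentile. Mmp9 (gelatinase B), known from injured nerve, had 3.4 and 1.8 with the wild type siRNA, against 14.1 and 2.5 with the mutant siRNA on 1 probe set, and 2.4 and 1.6 against 2.0 and 4.2 on the other. Adam32, Adam3a and Adam18, known mainly from the testis, follow Adam9 on chromosome 16. Adam22 is an inactive family member and a receptor on neurons for Lgi4, a protein that Schwann cells secrete. Its brightest probe set had 12.5 and 37.5 with the wild type siRNA, against 52.3 and 57.9 with the mutant siRNA. Its other probe sets had 29.3 and 25.4 with the wild type siRNA, against 3.6 and 3.5 with the mutant siRNA, and 4.2 and 3.5 with the wild type siRNA, against 1.8 and 18.7 with the mutant siRNA. All of these signals lay under the medians, and the Adam22 probe sets did not share an order of the groups. Adamts15 and its neighbour Adamts8 on chromosome 8 were also dim, although Adamts15 reached 142.7 on mutant siRNA replicate 1. Mmp23, a membrane-bound protease, had 54.0 and 75.2 with the wild type siRNA, against 122.2 and 66.3 with the mutant siRNA, on its brightest probe set, and the groups overlapped. Another of its probe sets had 28.7 and 12.4 with the wild type siRNA, against 95.4 and 115.0 with the mutant siRNA, and the last had 78.1 and 30.0 with the wild type siRNA, against 8.3 and 43.2 with the mutant siRNA, so that these too differed in order.

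Genes picked as activators, carriers or inhibitors of these proteases were read from a list of 41, of which 22 could be tested. With the wild type siRNA, 4 were called lower (18.2%) and 3 higher (13.6%), near the shares of 10.6% lower and 17.4% higher over all tested genes. Among the 3 higher was Cst3 (cystatin C), known as an inhibitor of cysteine proteases rather than of metalloproteases (log2 fold change 0.67, limma adjusted p = 0.0272). The list's median log2 fold change was 0.05, against 0.19 over all tested genes. Plat (tissue plasminogen activator), which makes the plasmin that activates Mmps, had 2701 and 4747 with the wild type siRNA, against 14240 and 13579 with the mutant siRNA (log2 fold change -1.88, limma adjusted p = 0.00296). Rhbdf1 (iRhom1), a partner that carries Adam17 to the cell surface, had 965 and 755 with the wild type siRNA, against 3718 and 2249 with the mutant siRNA (log2 fold change -1.68, limma adjusted p = 0.00479). Both genes were lower with the wild type siRNA on each array and kept their calls without each array in turn. Serpine2 (protease nexin-1), an inhibitor of thrombin and plasminogen activators, had 7944 and 10511 with the wild type siRNA, against 17849 and 16861 with the mutant siRNA (log2 fold change -0.85, limma adjusted p = 0.0115).

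Tspan17, a tetraspanin that escorts Adam10, had 337 and 358 with the wild type siRNA, against 190 and 186 with the mutant siRNA (log2 fold change 0.96, limma adjusted p = 0.0326). Reck, a membrane-anchored inhibitor of Mmps that is named here after its values were seen, had 2364 and 1919 with the wild type siRNA, against 1354 and 1158 with the mutant siRNA (log2 fold change 0.85, limma adjusted p = 0.0179). With 1 array left out, Tspan17 ran between 0.89 and 1.04, Reck between 0.71 and 0.98, and Serpine2 between -1.08 and -0.62.

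Membrane proteins that Adam proteases are known to shed were counted on a list of 45, with 26 tested. Of these, 6 were called lower (23.1%) and 3 higher (11.5%), against 10.6% and 17.4% of all tested genes, and the median log2 fold change was -0.24 against 0.19. No test of these shares was made. Ngfr (p75), the neurotrophin receptor and itself a Schwann cell marker, had 123 and 194 with the wild type siRNA, against 4557 and 3874 with the mutant siRNA (log2 fold change -4.69, limma adjusted p = 0.000339). Notch1, the receptor that Adam10 cuts, had 435 and 274 with the wild type siRNA, against 2726 and 1980 with the mutant siRNA (log2 fold change -2.67, limma adjusted p = 0.00153). L1cam, an adhesion molecule of axons and Schwann cells and also on the marker list, had 247 and 315 with the wild type siRNA, against 1295 and 1596 with the mutant siRNA (log2 fold change -2.29, limma adjusted p = 0.00156). Icam1, a leukocyte adhesion molecule, went the other way, with 682 and 773 with the wild type siRNA, against 189 and 236 with the mutant siRNA (log2 fold change 1.86, limma adjusted p = 0.00278). All 4 kept their calls without each array in turn.

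Proteins that Mmp or Adamts proteases are known to cut, most of them matrix proteins, were counted on a list of 31, with 21 tested. Here 7 were called lower (33.3%) and 1 higher (4.76%), beside 10.6% and 17.4% of all tested genes, with a median log2 fold change of -0.13 beside 0.19, again without a test of the shares. The 7 include Dag1 (dystroglycan), a cell surface protein (log2 fold change -0.95, limma adjusted p = 0.00918). Mbp, a myelin protein on the list, was too dim to test. Matn2 (matrilin-2), an adaptor of matrix networks, had 476 and 537 with the wild type siRNA, against 3444 and 2347 with the mutant siRNA (log2 fold change -2.41, limma adjusted p = 0.00147). Tnc (tenascin-C) had 1117 and 2436 with the wild type siRNA, against 6647 and 8289 with the mutant siRNA (log2 fold change -2.09, limma adjusted p = 0.00489), and both matrix genes kept their calls without each array in turn. Agrn (agrin), a basal lamina proteoglycan, had 603 and 649 with the wild type siRNA, against 1309 and 1457 with the mutant siRNA (log2 fold change -1.06, limma adjusted p = 0.00835). With 1 array left out it ran between -1.14 and -0.98. Comp, the 1 gene called higher, had 155 and 237 with the wild type siRNA, against 49.8 and 87.8 with the mutant siRNA (log2 fold change 1.61, limma adjusted p = 0.0478), but passed in none of the 4 fits with 1 array left out (limma adjusted p 0.0613 to 0.191).

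AP-1, Ets and other transcription factors, picked as known at Mmp promoters, made a list of 26, with 20 tested. The calls were 5 lower (25%) and 3 higher (15%), where all tested genes gave 10.6% and 17.4%, and the median log2 fold change was 0.10, where that of all tested genes was 0.19. Tcf4 was 1 of the 5 called lower (log2 fold change -1.14, limma adjusted p = 0.00770). This symbol stands for an E protein and not for the beta-catenin partner Tcf7l2, so that its place on the list is doubtful. The AP-1 members moved in both directions. Fosl1 had 199.6 and 199.6 with the wild type siRNA, against 597 and 791 with the mutant siRNA (log2 fold change -1.70, limma adjusted p = 0.00365), whereas Fosl2 had 461 and 692 with the wild type siRNA, against 141 and 253 with the mutant siRNA (log2 fold change 1.66, limma adjusted p = 0.0120). Ets1 had 210 and 451 with the wild type siRNA, against 1030 and 1060 with the mutant siRNA (log2 fold change -1.68, limma adjusted p = 0.0117). Egr1, an immediate early factor, had 6290 and 3119 with the wild type siRNA, against 2531 and 1046 with the mutant siRNA (log2 fold change 1.52, limma adjusted p = 0.0326). In Egr1 replicate 1 was above replicate 2 in both groups. Fosl1 kept its call without each array in turn. With 1 array left out, Fosl2 ran between 1.26 and 2.06, Ets1 between -2.26 and -1.11, and Egr1 between 0.87 and 2.18.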

How the data were processed

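RNA of RT4D6 cells was measured on 4 Affymetrix Rat 230 2.0 arrays. The authors deposited intensity values, the linear signal of each probe set, and the submitters' processing notes name MAS5. The 2% trimmed mean of each array is 500. Detection calls were not used here. Controls (57 probe sets) were dropped. Of the 31042 others, 20826 have 1 symbol, 436 several and 9780 none in the platform annotation, which can be old.

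From each log2 signal the array's median was subtracted, as in the study's median normalization. Probe sets that reached the median on 2 or more arrays entered limma 3.58.1 (R 4.3.3) with lmFit and an intensity trend in eBayes, and p-values were adjusted by Benjamini-Hochberg. The scripts were tested on simulated data. Python 3.11.15 with pandas 2.3.3 and matplotlib 3.10.9 made the tables and plots. The genes and lists were chosen with earlier results of these data known. All genes of the families are named, and of each list at least the 4 called genes with the largest change. The limma p-values rest on the spread between the arrays, with the variance of each probe set drawn toward that of probe sets of similar signal. The paper and the submitters describe the arrays as independent pairs of cell samples of 1 line, and their number limits the precision. Following that description, same-numbered arrays formed pairs in a fit with the replicate number as a block. Their deviations from the group means correlated at 0.14 over 16125 probe sets. Other alternatives were signals as deposited, quantile normalization, other filters, a floor and a pseudocount at the 25th percentile, no intensity trend, the methods' t-test, the mean over a gene's probe sets, and each array left out.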

Additional observations from a re-analysis of the deposited data

How the results depend on the processing

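The same 7 genes were called with the signals as deposited, after quantile normalization, without the filter, and with a floor or a pseudocount. With a filter on all 4 arrays Adamts10 joined them. With the replicate block, the members called higher were 6 (Adam19, Mmp24 and Timp1 joined), the shed substrates called lower 11, the matrix substrates called higher 4 and the transcription factors called higher 5. Without the intensity trend, the counts were 2 members lower (Adamts4 and Mmp2 were lost, and Timp2 among those higher), 2 regulators lower and 1 higher, 1 shed substrate higher, 4 matrix substrates lower, 3 transcription factors lower, and 1187 probe sets lower and 1177 higher over all. The methods' t-test without adjustment called 0 members lower and 3 higher. Of the 7 genes it kept only Adam15 and Adamtsl5, and Adamts10 joined them. In the lists it called 1 regulator lower, and 1 transcription factor lower and 0 higher. After Benjamini-Hochberg adjustment it called 0 members and 0 genes of each list in either direction, and 0 probe sets lower and 2 higher over all, where limma called 1956 and 2348. With the mean over probe sets, 2 members were lower, with Mmp2 at -0.67 (limma adjusted p = 0.220) and Timp3 lost, and Timp2 came to -0.0013. The 1 matrix substrate called higher, Comp, was at 0 calls with the signals as deposited, without the filter, with the filter on all 4 arrays, without the trend and with the unadjusted t-test.

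With 1 array left out, the count ran from 2 to 6 for members lower, 2 to 6 for members higher, 2 to 4 and 0 to 1 for regulators lower and higher, 5 to 8 and 1 to 3 for shed substrates, 4 to 9 and 0 to 3 for matrix substrates, 3 to 6 and 2 to 4 for transcription factors, and 706 to 2519 and 924 to 2128 for all probe sets. Each of these fits leaves 1 array in 1 group, so that the spread comes from the other group alone. The counts are therefore not a test of the array left out. Some genes that were not called turned direction when 1 array was left out. Adamts1 ran between -0.20 (without wild type siRNA replicate 2) and 0.95, Adamts5 between -1.02 and 0.50 (without wild type siRNA replicate 1, and 0.090 if mutant siRNA replicate 1 was dropped), and Adamts7 between -0.11 (without wild type siRNA replicate 2, and -0.10 if mutant siRNA replicate 2 was dropped) and 0.20. Adamts7 was also at -0.030 with the signals as deposited. A second Adamts9 probe set ran between -0.44 and 0.054 (0.0072 if mutant siRNA replicate 2 was dropped), a second Adam10 probe set between -0.65 and 0.22, Mmp14 between -0.48 and 0.022, its second probe set between -0.48 and 0.097, and Mmp16 between -0.36 and 0.23. The causes were not tested. Low signals, near an array's 25th percentile, are close to background and limit what can be said of the 31 dim genes.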
